A study of Mus musculus with 16 samples.

Results

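MicroRNAs (miRNAs) that red blood cells carry in abundance, mmu-miR-451a, mmu-miR-144-3p, mmu-miR-144-5p and mmu-miR-486a-5p, were followed in the prefrontal cortex of PS19 mice and wild-type (WT) littermates. The species prefix is left out hereafter. They were taken by name alone, and each had 1 row among the 18488 features of the small RNA table, giving 4 members, all present. The table held 8 PS19 and 8 WT libraries, 1 per labelled sample. PS19 mice (PS19+/- in the labels) are heterozygous for a mutant human tau transgene that the murine prion protein promoter drives, and develop tau pathology. Per the methods of the study, both groups were adults of a single age with equal numbers of males and females, blood was drawn from the heart, and the animals were then perfused with buffered saline before the cortex was dissected. The labels give no treatment for either group, and per the methods all animals were anesthetized with Avertin first. The transgene is a messenger RNA gene and was not measured in these libraries, so the genotype labels were not checked against it.

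Maturing red blood cells lose their nucleus but keep a store of small RNAs. The Mir144 and Mir451a genes are transcribed together under the erythroid transcription factor GATA1. miR-451a is unusual in that its hairpin is too short for Dicer and is cut by Argonaute 2 itself, whereas the miR-144 arms are released by Dicer in the common way. miR-486 is encoded within Ank1, the gene of the red cell membrane protein ankyrin-1, and is also known from skeletal and heart muscle. In plasma work, miR-451a set against miR-23a-3p, which red cells hold little of, is a customary gauge of haemolysis. In a tissue sample, fewer cells of a type and less RNA per cell cannot be told apart.

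The sequences of the 3 members encoded at the Mir144 and Mir451a locus are shown because the members are compared as products of 1 transcript. They are RefSeq mature sequences for GRCm38.p6, read 5′ to 3′ on the plus strand, with the seed, bases 2 to 8, in capitals. They occupy chr11:78073186-78073207, chr11:78073047-78073066 and chr11:78073010-78073032 in the order given.
miR-451a: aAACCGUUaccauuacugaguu
miR-144-3p: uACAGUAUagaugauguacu
miR-144-5p: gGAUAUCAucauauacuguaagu
The 3 seeds differed from one another, and 0 other mature miRNAs in the RefSeq set carried any of them. The hairpins follow, with the mature miRNAs in capitals, because they show how differently the products of this locus are placed.
Mir451a hairpin: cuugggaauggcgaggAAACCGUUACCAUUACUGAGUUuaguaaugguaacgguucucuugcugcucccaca
Mir144 hairpin: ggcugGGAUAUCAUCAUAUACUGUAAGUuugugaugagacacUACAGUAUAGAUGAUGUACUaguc
In the minimum free energy fold of the 72-base Mir451a hairpin, the mature sequence ran from base 17 to base 38 and took in all 4 bases of the terminal loop. In the 66-base Mir144 hairpin both mature arms lay outside the loop, at bases 31 to 36. The hairpins stand 99 bases apart at chr11:78073005-78073070 (Mir144) and chr11:78073170-78073241 (Mir451a), and neither overlaps a protein-coding gene in the GENCODE M21 annotation. Mir486, at chr8:23142555-23142682 on the plus strand, lies in an intron of Ank1. The same stretch carries Mir3107, the gene of miR-486b, on the minus strand at chr8:23142573-23142662.

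Reads summed over all rows came to 13.2 M to 23.1 M per library, of which 2.69 M to 7.51 M lay on miRNA rows. Of the 6024 rows tested below, 482 were identical to another, so a read may be counted on more than 1 row. These sums may therefore overstate depth. The deposited values are normalized counts, namely reads divided by 1 size factor per library, so that 1 read was worth 0.595 to 1.46 and a floor of 3 reads stood at 1.78 to 4.37. These floors and the intervals below cover counting error only. miRNAs of cortical neurons were detected in all 16 libraries, with miR-9-5p at 148691 ± 61162 in PS19 and 165071 ± 66216 in WT (SD, n = 8 each). No pair of libraries within a group agreed within sampling noise.

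mmu-miR-451a was low throughout, with at least 3 reads in 15 of 16 libraries and 2 reads in WT replicate 2, under the floor. In PS19 cortex its normalized count was lowest at 5.69, with a median of 15.7 and a highest value of 40.1. In WT cortex the lowest value was 1.90, the median 10.9 and the highest 27.1. The groups overlapped over most of their range. The lowest library was WT replicate 2 and the highest PS19 replicate 2. These values rest on 2 to 37 reads per library, 249 in all. The 37 reads of PS19 replicate 2 have an exact 95% Poisson interval of 26.1 to 51.0 reads, and the 2 reads of WT replicate 2 one of 0.242 to 7.22. Among the 15 libraries at or above the floor miR-451a varied 7.04-fold, and over all libraries the coefficient of variation was 61.7% in PS19 and 68.3% in WT.

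miR-144, encoded on the same transcript, was almost unseen. mmu-miR-144-3p gave 6 reads in all, at 0 in 12 of 16 libraries, and those reads fell in PS19 replicates 2 and 7 and WT replicates 4 and 8. mmu-miR-144-5p gave 5 reads in all, at 0 in 11 libraries, 7 PS19 and 4 WT. Both arms stayed at or under the floor of 3 reads in each library, so no fold is given for either. Of the 260 reads assigned to the 3 products of the locus, miR-451a took 95.8% (exact 95% interval 92.6 to 97.9), miR-144-3p 2.31% (0.851 to 4.95) and miR-144-5p 1.92% (0.627 to 4.43). miR-451a made up 138 of 141 such reads in PS19 and 111 of 119 in WT.

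mmu-miR-486a-5p stood far above the other 3 members. Its normalized count in PS19 cortex was 717.5 at the lowest, 890.7 at the median and 1499 at the highest. In WT cortex it was 627.5, 973.7 and 1397. The groups overlapped almost wholly, with the highest values in PS19 replicate 5 and WT replicate 1 and the lowest in WT replicate 4. With 498 to 1525 reads per library it varied only 2.39-fold, and it made up 95.1 to 99.8% of the summed level of the 4 members in each library.

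**Figure D1:**
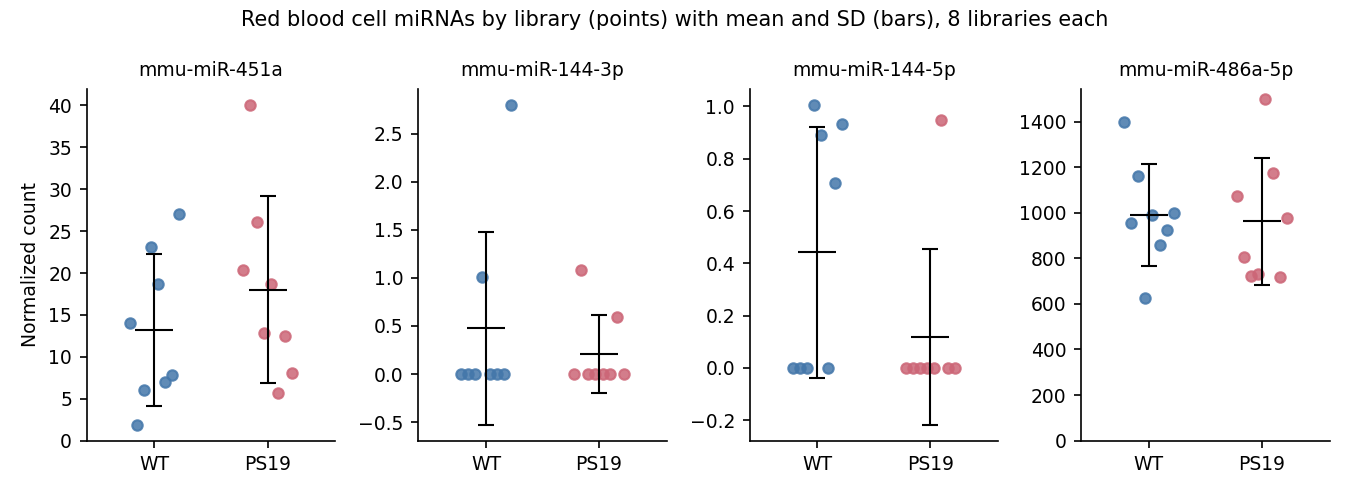
Normalized count of each red blood cell miRNA (vertical axis, a separate scale for each) in 8 WT and 8 PS19 libraries, as points with mean and SD bars. The genotypes overlap in all 4 panels. miR-451a spreads from 1.90 to 40.1, both miR-144 arms sit at 0 in most libraries, and miR-486a-5p ranges from 627.5 to 1499.

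In RPM, here reads scaled to the miRNA total of a library, which compares miRNAs of nearly equal length, the order was miR-486a-5p at 243.5, miR-451a at 3.59 and then both miR-144 arms. Among 1254 mature miRNA rows ordered by mean level, miR-486a-5p ranked 125, miR-451a 414, miR-144-3p 933 and miR-144-5p 969. miR-486a-5p and miR-451a did not overlap in any library. The neighbours miR-144-3p and miR-144-5p could not be ordered, as both rest on a handful of reads.

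The table also listed 5 other rows of the miR-486 locus. miR-486b-5p gave nearly the same values as miR-486a-5p, at 952.6 ± 256.5 in PS19 and 998.6 ± 228.0 in WT, and the ratio of miR-486a-5p to it was 0.983 to 1.07 in every library. These miRNAs are known to be near-identical, and how the counting treated reads that match both is not given in the sources used here, so they are not counted as separate measurements. The opposite arm, miR-486a-3p, stood at 51.0 ± 19.8 in PS19 and 43.1 ± 13.2 in WT, and miR-486a-5p exceeded it 13.5 to 50.3-fold (median 20.8). miR-486b-3p was at 12.4 ± 7.50 in PS19 and 6.43 ± 5.88 in WT, higher than the WT median in 6 of 8 PS19 libraries. The precursor rows mir-486a and mir-486b held at most 5 reads in a library.

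**Figure D2:**
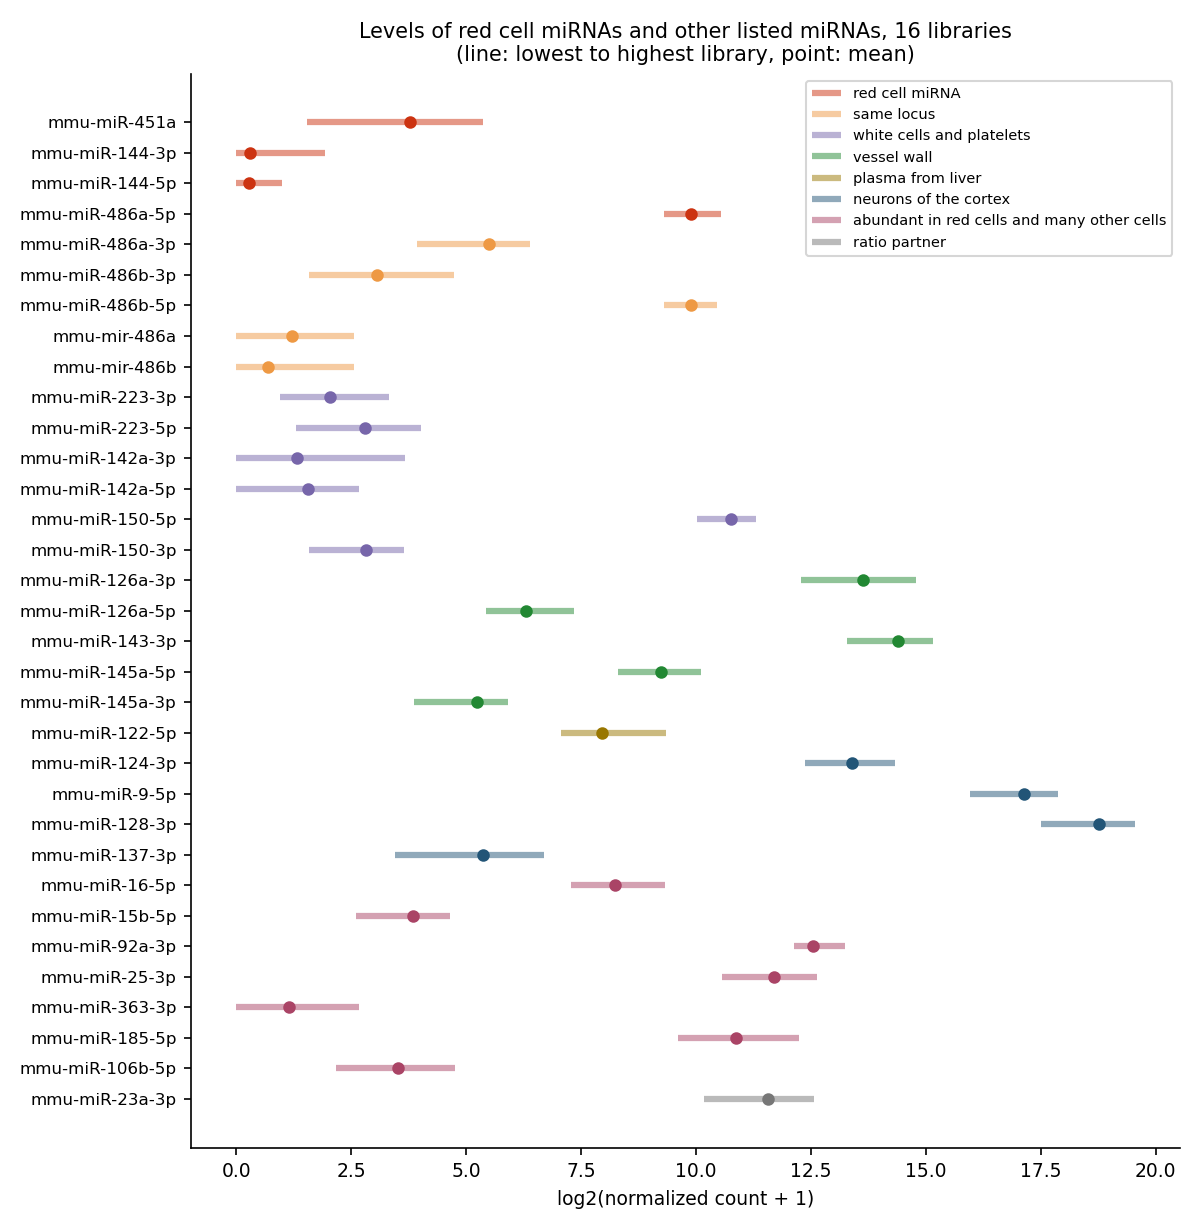
Level of the red cell miRNAs and of the listed miRNAs of the same locus, of white cells and platelets, vessel wall, liver, neurons and red cells among other cells (horizontal axis, log2 of the normalized count plus 1; line from the lowest to the highest of 16 libraries, point at the mean). miR-486a-5p lies with the moderately abundant miRNAs, whereas miR-451a lies near miR-15b-5p and miR-106b-5p, and the miR-144 arms lie at the bottom.

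The first comparison was between genotypes, and none of the members passed the test. Of 6024 features with a mean of at least 5, 241 or 4.0% had an unadjusted p under 0.05 (112 higher and 129 lower in PS19) and 0 (0.00%) passed after Benjamini-Hochberg adjustment. DESeq2 on the recovered reads called 15 and edgeR 0. Of the 2 members above that level, 0 had an unadjusted p under 0.05. miR-451a averaged 18.02 ± 11.12 in PS19 and 13.21 ± 9.02 in WT (SD, n = 8 each). Its log2 difference, on the scale of log2 of the normalized count plus 1, was 0.52 ± 0.43 (SE), with a 95% interval of 0.771 to 2.68-fold (limma p = 0.239, adjusted p = 0.9998, exact two-sided permutation p = 0.305), and 6 of 8 PS19 libraries lay above the WT median. The difference was within the spread between libraries, and no direction can be read from it. It rested in part on the 2 reads of WT replicate 2, without which it was 0.24.

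miR-486a-5p averaged 961.7 ± 278.0 in PS19 and 989.5 ± 223.4 in WT. Its log2 difference was -0.06 ± 0.21, with an interval of 0.714 to 1.30-fold (limma p = 0.788, adjusted p = 0.9998, exact two-sided permutation p = 0.758). This interval was narrower than that of miR-451a, and the difference was again within the spread between libraries. The miR-144 arms lay below the mean of 5, and the exact two-sided permutation test over all assignments of the libraries gave p = 0.733 for miR-144-3p and p = 0.231 for miR-144-5p. With no filter on low values, limma gave an adjusted p of 0.9999 for both. Among the other rows of the locus, miR-486b-3p had the widest separation, a log2 difference of 0.85 ± 0.42 (limma p = 0.0579, adjusted p = 0.9998, exact permutation p = 0.0892). Its unadjusted p was 0.045 by DESeq2 and 0.049 by edgeR on the recovered reads, and 0.011 by limma without WT replicate 1, its highest WT library at 20.5. After adjustment the edgeR and limma values did not pass, and DESeq2 gave no adjusted p for it. miR-486a-3p, with more reads, differed by 0.16 ± 0.29 (limma p = 0.582, exact permutation p = 0.616).

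**Figure D3:**
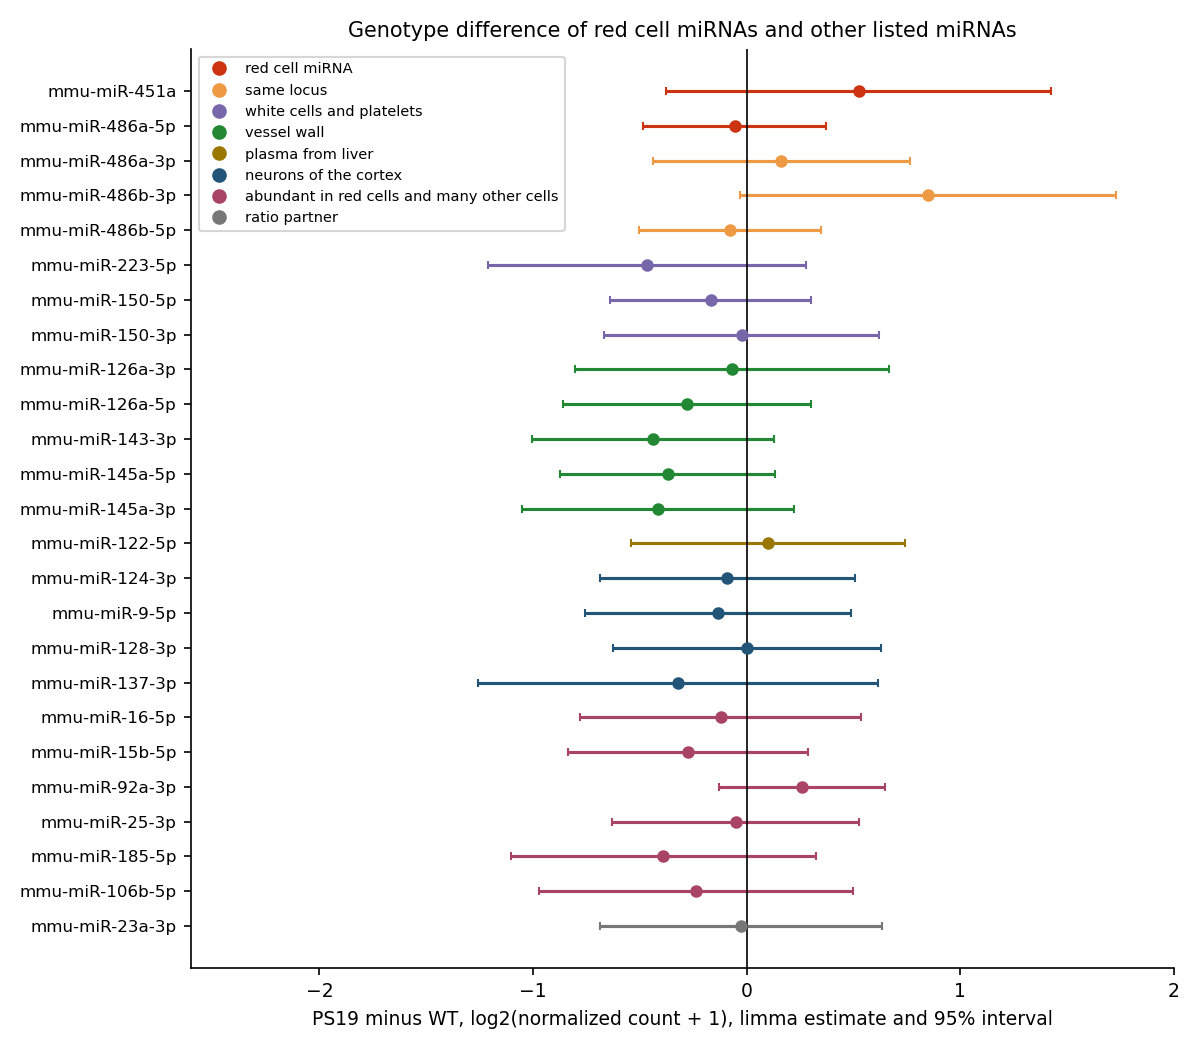
PS19 minus WT difference (horizontal axis, log2 of the normalized count plus 1; limma estimate with 95% interval) for the red cell miRNAs and listed miRNAs above the mean of 5. Every interval spans 0, and those of miR-451a and miR-486b-3p are among the widest.

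Library codes in the labels begin with G for all 8 PS19 and 2 WT libraries, and with F or A for the other 6 WT libraries. The meaning of these letters is not given in the sources used here, so genotype and letter cannot be told apart in the libraries coded F and A. Within the libraries coded G, the miR-451a difference was 0.97 (exact permutation p = 0.289), and the 2 WT values were 1.90 and 23.1, the span of nearly the whole WT group. Within G the miR-486a-5p difference was 0.26 (exact permutation p = 0.467), opposite in sign to that over all libraries. miR-144-3p and miR-144-5p gave exact permutation p-values of 0.844 and 0.200. With 8 against 2 libraries, the smallest p this test allows is 0.0222.

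A second question was whether the red cell miRNAs, so named for the cells known to carry them, moved together across animals. Their source in this tissue was not tested. miR-451a, which rests on few reads, and miR-486a-5p showed no common rise. Over all libraries the values of miR-451a with the 3p arms of the miR-486 locus were positive, and within the genotypes they were uneven. Within a library all rows were divided by the same size factor. Across the 16 libraries, Pearson's r of miR-451a with miR-486a-5p was -0.21 and Spearman's rho -0.21. This r was -0.20 without PS19 replicate 2 and WT replicate 2. It was -0.25 within PS19 and -0.16 within WT. PS19 replicate 2, the library highest in miR-451a, had 804.3 of miR-486a-5p, below the median of its group. With reads scaled to the miRNA total, r was 0.05. With miR-486a-3p, miR-451a gave r = 0.25 and rho = 0.45 over 16 libraries, and r = 0.31 without PS19 replicate 2 and WT replicate 2. Within PS19 r was 0.32 and rho 0.67, and within WT 0.13 and 0.19. With miR-486b-3p, miR-451a gave r = 0.29 and rho = 0.28. Within PS19 these were 0.44 and 0.60, and within WT -0.02 and -0.21.

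**Figure D4:**
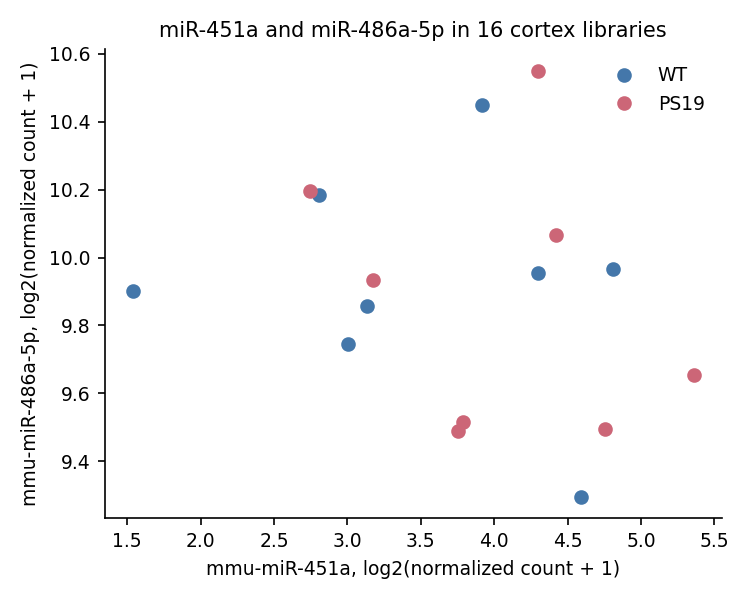
miR-451a (horizontal axis) against miR-486a-5p (vertical axis), both log2 of the normalized count plus 1, in 8 WT and 8 PS19 libraries, 1 point each. The points show no common rise (r = -0.21), and the genotypes intermingle.

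On the log2 scale, the ratio of miR-451a to miR-486a-5p averaged -5.83 ± 1.02 in PS19 and -6.41 ± 1.20 in WT, from -7.45 to -4.29 and from -8.36 to -4.70. The ratio of miR-451a to miR-23a-3p, the haemolysis gauge of plasma work, averaged -7.52 ± 0.76 in PS19 and -8.07 ± 0.78 in WT. PS19 values ran from -8.72 to -6.57 and WT values from -9.30 to -7.08, so the groups overlapped in both ratios. The lowest WT value of each was WT replicate 2, with its 2 reads of miR-451a under the floor, and without that library the PS19 minus WT difference went from 0.58 to 0.30 for miR-486a-5p and from 0.55 to 0.37 for miR-23a-3p. miR-23a-3p itself was at 3351 ± 1558 in PS19 and 3369 ± 1499 in WT, so that here the partner was the abundant member of the pair.

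With other miRNAs of vessels and blood, the r of miR-451a was uneven within each list. Over the 5 vessel wall rows it ran from 0.19 for miR-145a-5p to 0.62 for miR-126a-3p, a miRNA of endothelial cells (rho 0.68). Over the 3 tested rows of white cells it ran from -0.03 for miR-150-3p to 0.58 for miR-150-5p, known from lymphocytes (rho 0.66), with 0.02 for the myeloid miR-223-5p. Over the 6 tested miRNAs shared by red cells and many other cells it ran from 0.20 for miR-185-5p to 0.59 for miR-16-5p (rho 0.59), and over the 4 neuronal rows from 0.22 for miR-137-3p to 0.48 for miR-124-3p. It was 0.09 with the liver miR-122-5p and 0.60 with miR-23a-3p (rho 0.56). The pooled value hid opposite signs within the genotypes for miR-122-5p (0.51 in PS19, -0.41 in WT), miR-145a-3p (0.76 and -0.21), miR-150-3p (0.44 and -0.30) and miR-223-5p (-0.04 and 0.24), differences that were not tested. With reads scaled to the miRNA total, miR-126a-3p, miR-16-5p, miR-150-5p and miR-23a-3p gave 0.62, 0.58, 0.55 and 0.61, whereas miR-185-5p fell to -0.26, miR-143-3p to 0.03 and miR-137-3p to 0.00. For miR-486a-5p, which has far more reads, r with the same miRNAs ran from -0.35 for miR-92a-3p to 0.44 for miR-122-5p. It was 0.44 with miR-122-5p (rho 0.46), 0.41 with miR-137-3p (rho 0.53) and 0.38 with miR-150-3p (rho 0.30). It was -0.20 with miR-126a-3p, -0.29 with miR-150-5p, -0.34 with miR-16-5p and -0.26 with miR-23a-3p (rho -0.16, -0.17, -0.23 and -0.17). In that order, these negative relations gave r of -0.38, -0.71, -0.61 and -0.43 within PS19. Within WT they gave -0.02, 0.22, -0.11 and -0.04, a difference that was not tested. Without PS19 replicate 5 and WT replicate 4, the pooled negative values were -0.04, -0.02, -0.05 and -0.07 in the same order. With reads scaled to the library total they were -0.46, -0.35, -0.38 and -0.42. Scaled to the miRNA total they were -0.49, 0.31, -0.20 and -0.22, so they depended on both the libraries and the scaling. These are descriptions over 16 libraries, without a test, and miR-451a also had r = -0.40 with the number of reads in the library and 0.38 with what 1 read was worth. The part of depth in these relations was not tested. The rows most like the summed level of the members, which is nearly that of miR-486a-5p, were miR-433-3p (r = 0.84), miR-669c-5p (0.82), miR-323-5p (0.80), miR-139-3p (0.80) and the precursor mir-760 (0.77). The median over 6019 rows was 0.00, but these rows were picked as the highest. How high unrelated rows would reach was not tested.

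Other miRNAs of blood and vessel were counted as a background to the members, and 0 of those tested passed in either direction at an unadjusted p under 0.05, against 4.0% of all features tested and 18 of the 748 miRNA rows. At so few rows a count of 0 lies near that background. Of 6 rows of white cells and platelets, 3 were tested, with a median log2 difference of -0.17, and their summed level was 1075 to 2550 in PS19 and 1152 to 2546 in WT. Nearly all of that sum was miR-150-5p, at 1720 ± 541.0 in PS19 and 1906 ± 486.7 in WT. The myeloid miR-223-3p was close to its floor, at 2.62 ± 1.35 in PS19 and 4.71 ± 2.82 in WT, with 0 of 8 PS19 libraries above the WT median (exact permutation p = 0.116). miR-142a-3p, found in cells of the blood lineage including microglia, was at 3.75 ± 3.63 in PS19 and 1.02 ± 1.41 in WT. It was higher than the WT median, which was 0, in 7 of 8 PS19 libraries (exact permutation p = 0.0476, unadjusted). Its other arm, miR-142a-5p, also with 39 reads in all, was at 2.38 ± 1.72 in PS19 and 2.14 ± 1.31 in WT, higher than the WT median in 3 of 8 PS19 libraries (exact permutation p = 0.785). miR-142a-3p was below the mean of 5 and so outside the fit over all features, and 0 to 12 reads carry it.

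All 5 vessel wall rows were tested and lay below 0, with a median log2 difference of -0.37 against -0.12 over the 748 miRNA rows tested, and as fitted over all 16 libraries none passed. The rows hold both arms of miR-126a and of miR-145a, so they are not 5 separate measurements. miR-143-3p, from smooth muscle, gave the lowest of them, -0.44 ± 0.27 (limma p = 0.123, adjusted p = 0.9998, exact permutation p = 0.163). Its unadjusted limma p was 0.032 with the replicate number as a block, 0.035 without WT replicate 6 and 0.036 without WT replicate 7, and it did not pass after adjustment in these fits. miR-122-5p, which liver sheds into plasma, was at 291.2 ± 173.6 in PS19 and 252.3 ± 88.0 in WT. Of 7 miRNAs that red cells hold in quantity along with many other cells, 6 were tested, with a median log2 difference of -0.18. miR-92a-3p was at 6772 ± 1730 in PS19 and 5579 ± 1013 in WT, miR-16-5p at 313.6 ± 127.0 and 356.5 ± 187.7, and neither passed (adjusted p = 0.9998 for both by limma). miR-16-5p was above miR-451a in 16 of 16 libraries and below miR-486a-5p in 15, all but WT replicate 4. The 4 neuronal rows had a median of -0.11.

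**Figure D5:**
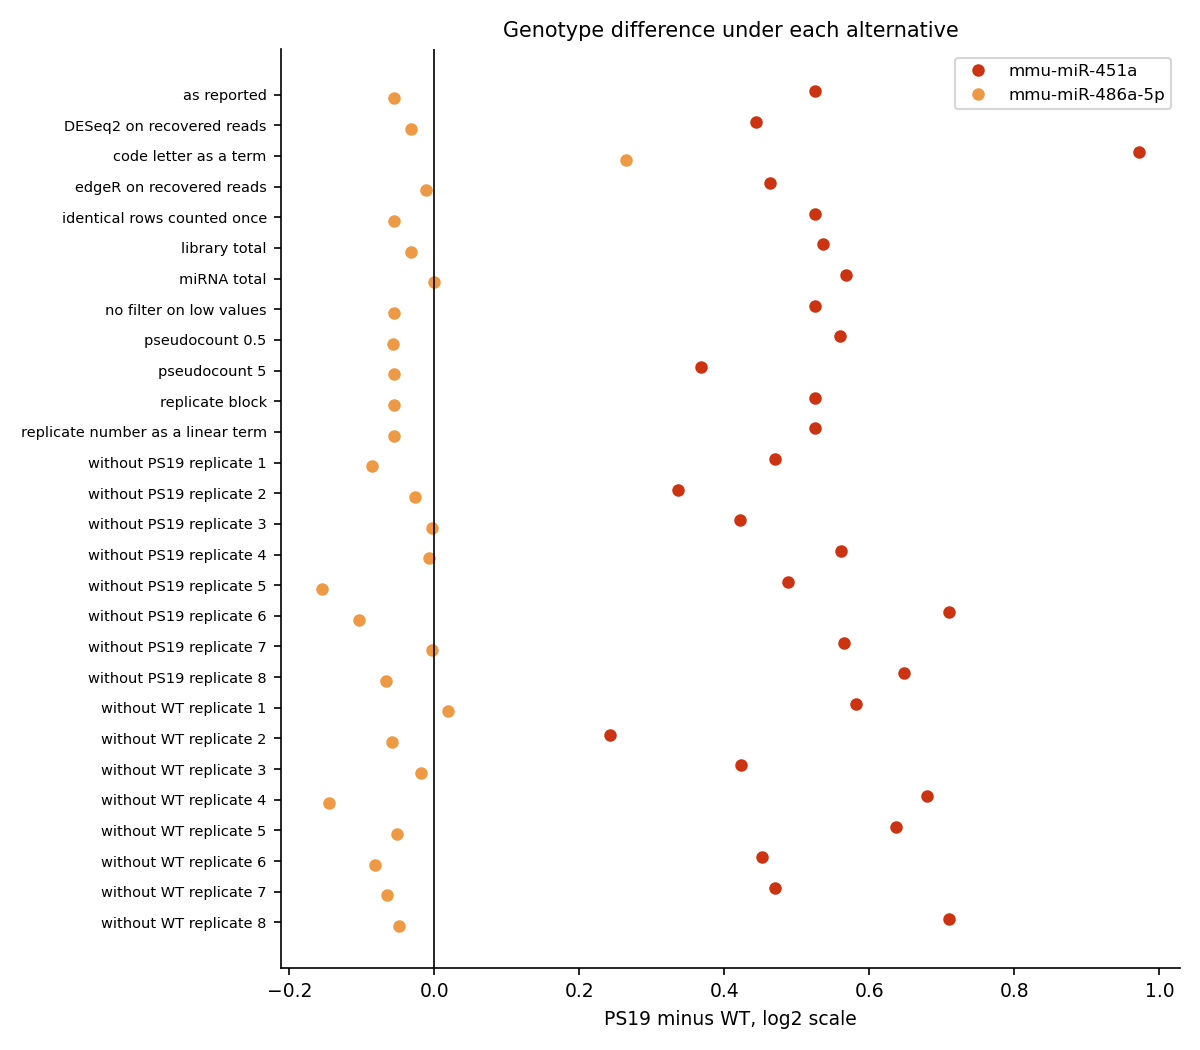
PS19 minus WT difference (horizontal axis, log2 scale) of miR-451a and miR-486a-5p as reported and under each other setting, including the omission of each library. miR-451a stays between 0.24 and 0.97, and miR-486a-5p between -0.15 and 0.26, on both sides of 0.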

How the data were processed

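Small RNA libraries of prefrontal cortex (NEBNext kit) from 8 PS19 and 8 WT mice were used, named by genotype and by the number that ends each sample's title. Per the submitters' notes and methods, the authors aligned reads with STAR 2.5.3a to mm10 within COMPSRA and normalized counts with DESeq2 1.42.1. The deposited signal is counts divided by 1 size factor per library. Whole reads were recovered from the step between values (tolerance 0.001), on weaker evidence in the 2 libraries with a step near 1, WT replicates 4 and 6. The authors' DESeq2 log2 fold changes, standard errors, means, Wald scores and p-values, deposited in the same file, were not used. Log2(value + 1) was fitted with limma 3.58.1 (trend) in R 4.3.3 over the 6024 features with a mean of at least 5, with Benjamini-Hochberg adjustment over all of them. The fold changes understate the change of low features. Single values were compared by exact two-sided permutation in Python 3.11.15. Hairpins were folded with ViennaRNA 2.7.2. The fit was tested on simulated data. Alternatives were DESeq2 1.42.0 and edgeR 4.0.16 on recovered reads, other scalings, filters and pseudocounts, the code letter and replicate number as terms, and omission of each library. The labels do not say that each library is a separate animal. The methods describe 8 mice per group, and p-values measure the spread between these samples. The named miRNAs are the members, the other rows of their loci, the listed blood, vessel, liver and neuron miRNAs, the ratio partner miR-23a-3p and the 5 rows most like the members' summed level. The rows most like miR-451a were named after its values were seen. Members and lists were chosen with earlier results of these data known.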

Additional observations from a re-analysis of the deposited data

Results flagged for a closer look

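In 3 of 26 group values examined, 1 library stood apart from the other 7 by Dixon's test, which chance does in about 1 of 20 groups of continuous values. That rate does not apply to the miR-144 arms, where most libraries are at 0 and a single read can be set apart by construction. miR-144-3p was highest in WT replicate 8, at 2.80 against 1.01 in the next library. miR-144-5p was at 0.949 in PS19 replicate 6 and at 0 in the other PS19 libraries, which is a single read. miR-486b-3p was at 20.5 in WT replicate 1 and at most 6.84 in the other WT libraries. WT replicate 1 was also the WT library highest in miR-486a-5p.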

How the results depend on the processing

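The miR-451a difference kept its sign in every setting that gave a value, from 0.24 without WT replicate 2 to 0.97 with the code letter as a term, and never passed the threshold (unadjusted p 0.115 to 0.540, lowest adjusted p 0.909). A mean of at least 20 left it out. With the replicate number as a block its p was 0.268. The numbers are not known to pair animals, and same-numbered libraries deviated together (correlation over 0.1) in 6 of 8 pairs (0.045 to 0.456), while 2 of 8 PS19 libraries correlated best with their own number. The miR-486a-5p difference reversed to 0.26 with the code letter and to 0.019 without WT replicate 1 (-0.15 to 0.019 over omissions), and that of miR-144-3p to 0.073 without WT replicate 8 (-0.27 to 0.073). The cause was not tested. DESeq2, edgeR, block and letter were not run for the miR-144 arms, which lie below the filter. Features with an unadjusted p under 0.05 numbered 241 as reported, 124 with the code letter, 136 with a mean of at least 20, 123 scaled to the miRNA total, 680 with no filter, 419 with the block and 171 to 321 on omitting a library. After adjustment DESeq2 called 15 and the other settings 0. Of the listed miRNAs, 0 passed at an unadjusted p under 0.05 as reported, 1 (miR-486b-3p) under DESeq2, edgeR, library total, miRNA total and a linear replicate number, 2 with no filter (miR-142a-3p and miR-486b-3p), 2 with the block (miR-143-3p and miR-486b-3p), and 0 to 1 on omitting a library (miR-486b-3p without PS19 replicate 7, PS19 replicate 8 or WT replicate 1, miR-143-3p without WT replicate 6 or 7). miR-451a rests on 2 to 37 reads per library and the miR-144 arms on 6 and 5 reads in all, while the coefficient of variation of miR-451a was 61.7% in PS19 and 68.3% in WT. The part of depth in its spread was not tested.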

Other observations

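The rows most like miR-451a were looked up after its values had been seen, and are given as a description over 16 libraries. They were picked as the highest of 6019 rows, and how high unrelated rows would reach was not tested. Among all features they were mmu_circ_0005335 (r = 0.77), mmu_circ_0012434 (0.77), mmu_circ_0013978 (0.76), the precursor mir-671 (0.75) and mmu_circ_0012149 (0.75). Among miRNA rows, mir-671 was followed by miR-5129-3p (0.72), miR-181c-3p (0.72), miR-497a-5p (0.68) and miR-574-3p (0.68). Neither set shared a row with the 5 most like miR-486a-5p, which were miR-433-3p (r = 0.85), miR-669c-5p (0.83), miR-323-5p (0.81), miR-139-3p (0.81) and mir-760 (0.78). Several of these rows are themselves low, with mir-671 at a mean of 5.67 and mmu_circ_0005335 at 8.62.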
